A study of Mus musculus with 8 samples.

Results

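Transcripts of 31 genes that p53 activates or that respond to DNA damage were examined in mouse ventral midbrain. The genes were listed by name, each was matched to its RefSeq identifiers, and the row with the highest total count stood for the gene. All 31 were found among the 15274 genes of the deposited table, and all 31 passed the filter on low counts that left 14989 genes for testing. RNA was sequenced from 4 samples of Ercc1 delta/+ mice and 4 samples of wild type mice, both in a mixed FVB:C57BL/6J background on a regular diet. The Ercc1 delta/+ mice carry 1 mutant delta allele and 1 normal allele of Ercc1, and the wild type mice carry 0 mutant alleles. Ercc1 is a DNA repair gene whose product is the partner of Xpf in the nuclease that cuts damaged strands out of DNA. The labels give no age or sex. They also leave unsaid whether every library came from its own mouse, so the p-values reflect variation among 8 libraries, some of which may be technical. The series title names inefficient DNA repair as a modifier of Parkinson disease, and the comparison asked whether damage response transcripts differ in the tissue that holds the vulnerable dopaminergic neurons.

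The p53 protein, encoded in mouse by Trp53, is a transcription factor that is held at a low level because the ubiquitin ligase Mdm2 marks it for destruction. DNA damage frees p53 from Mdm2 through kinases such as Atm and Chek2, and p53 then activates genes that stop the cell cycle, start apoptosis, adjust metabolism or restore Mdm2. Because p53 is controlled mostly at the level of the protein, its activity is usually read from its target transcripts and not from Trp53 itself. Several targets have other inducers too: Cdkn1a is raised by glucocorticoids, and Plk2 and Gadd45b are raised by neuronal activity.

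With 1 row per gene, the libraries held between 18268373 and 27146604 counts in Ercc1 delta/+ and between 20517887 and 31197522 counts in wild type. The targeted gene Ercc1 averaged 11.5 ± 1.17 CPM (counts scaled to library size) in Ercc1 delta/+, against 14.6 ± 0.724 CPM in wild type (mean ± SD of 4 libraries). Every Ercc1 delta/+ library lay below every wild type library, but the adjusted p of 0.114 in the quasi-likelihood test of edgeR missed the threshold of 0.05. All 10 dopaminergic neuron markers were detected in every library, among them Th and Slc6a3, and their summed level ran from 222 to 462 CPM in Ercc1 delta/+ and from 327 to 497 CPM in wild type. Markers of neighbouring tissue varied more between libraries. The 10 choroid plexus markers summed to between 103 and 1202 CPM in Ercc1 delta/+, with the highest value in replicate 3, and to between 104 and 187 CPM in wild type. The 6 hypothalamic markers summed to 21.8 CPM in Ercc1 delta/+ replicate 2 and to between 244 and 727 CPM in the other 7 libraries. The 5 striatal markers summed to between 102 and 689 CPM in Ercc1 delta/+ and to between 116 and 826 CPM in wild type. No marker of these sets that is in the table was at 0 in any library. In RNA from whole tissue, fewer cells of a type and less RNA per cell cannot be told apart.

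The members covered a wide range of levels per length in wild type midbrain, expressed as CPM per kilobase of transcript. Ei24, which encodes a membrane protein of the endoplasmic reticulum, stood highest at 43.3 ± 2.97 (SD, n = 4), followed by the Akt inhibitor gene Phlda3 at 33.0 and the pore-forming apoptosis gene Bax at 26.4. At this scale 10 members exceeded 10, among them Mdm2 at 13.8 and Trp53 at 10.2. The 6 members under 1 were Fas, Pidd1, Dram1, Ckap2, Tnfrsf10b and Eda2r. Eda2r, a receptor gene of the tumour necrosis factor family, was lowest at 0.110 ± 0.0261 (SD, n = 4) and stood at the 0.381 percentile of all genes tested. The receptor genes Fas, Tnfrsf10b and Eda2r were thus near the bottom of the measured range. Their raw counts were as low as 5 in a library, which limits the precision of their comparisons.

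**Figure D1:**
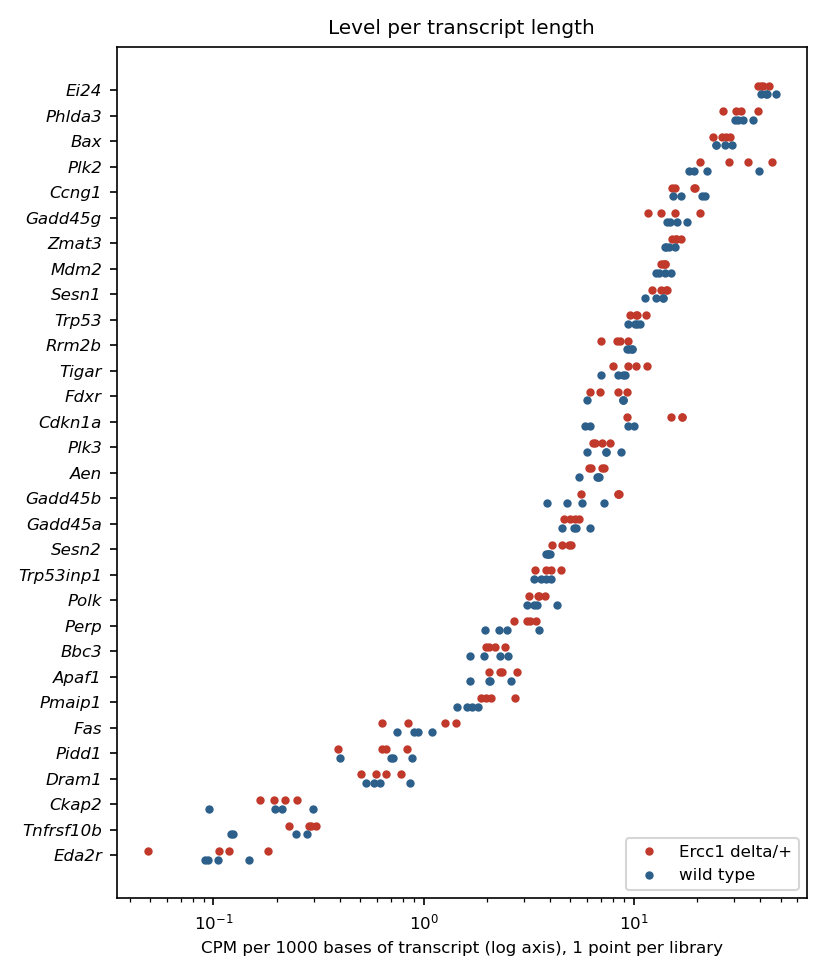
Level of each member per transcript length, in CPM per kilobase on a log axis, with 1 point per library, red for Ercc1 delta/+ and blue for wild type. Ei24 is highest and Eda2r lowest, and Cdkn1a shows 3 Ercc1 delta/+ libraries to the right of all wild type libraries.

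No member passed the edgeR quasi-likelihood test after adjustment over all genes tested (0 of 31), a test that 0.0467% of all genes passed. At an unadjusted p under 0.05 there were 5 members (18.6% of all genes tested lay under it). Of these 4 had higher values in Ercc1 delta/+, namely Cdkn1a, Gadd45b, Pmaip1 and Sesn2 (9.03% of all genes), and 1 had lower values, Rrm2b (9.57% of all genes). Sesn2 and Pmaip1 were the 2 members whose groups did not overlap, both higher in Ercc1 delta/+. Over all genes tested, 12% did not overlap, 5.17% with higher and 6.86% with lower values in Ercc1 delta/+. With both directions pooled, the share of members under either limit was thus close to or below that of all genes. In the higher direction alone the shares, 4 of 31 and 2 of 31, were larger than the 9.03% and 5.17% of all genes, but rest on few members. In the lower direction they were smaller, 1 of 31 and 0 of 31. A positive log2 fold change was found for 20 members (49.5% of all genes tested had one), and the median was 0.04 over the members and -0.00 over all genes. The absolute log2 fold change was under 0.1 in 18 members and above 0.25 in 7 (25.9% of all genes were above 0.25).

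**Figure D2:**
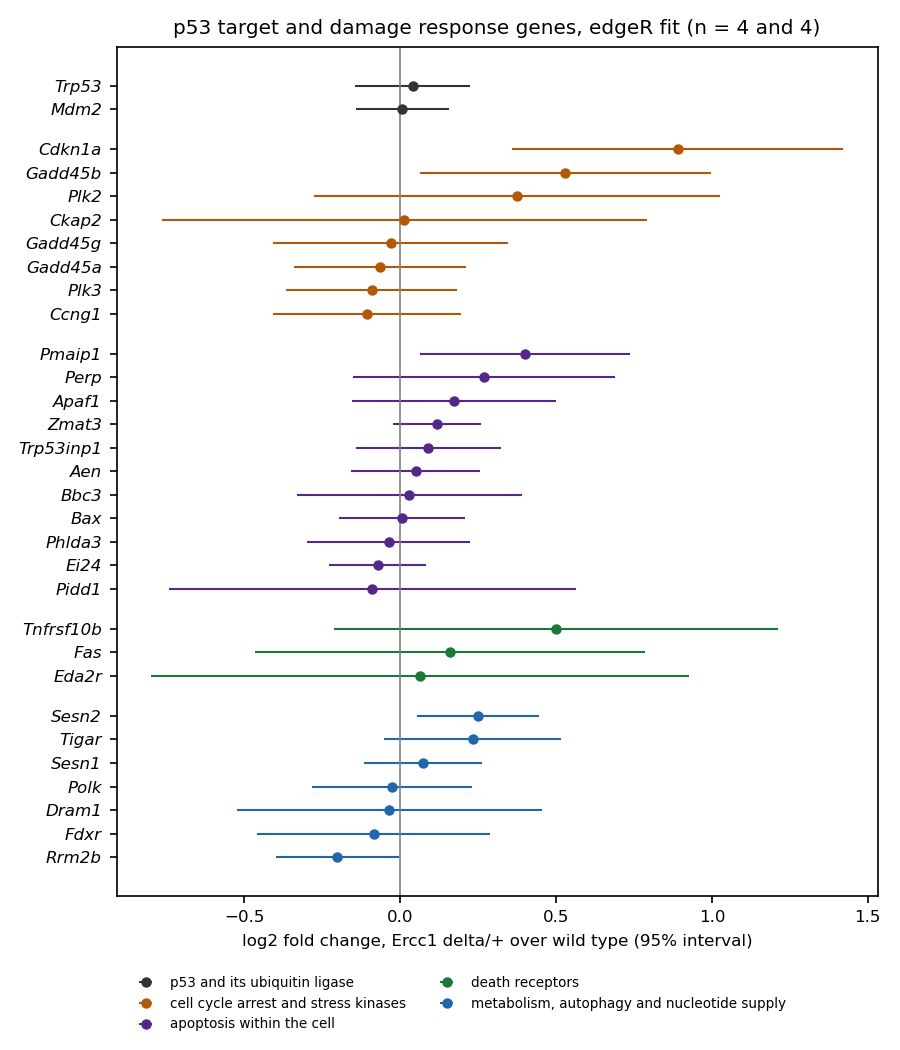
Log2 fold change of each member, Ercc1 delta/+ over wild type, with 95% intervals from the edgeR fit (n = 4 and 4), grouped by role. The intervals of 26 members hold 0, those of Cdkn1a, Gadd45b, Pmaip1 and Sesn2 lie above 0, and that of Rrm2b lies just below 0.

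The gene for p53 itself and the gene for its ubiquitin ligase had nearly the same level in both genotypes. Trp53 had 18.0, 19.2, 19.4 and 21.4 CPM in Ercc1 delta/+ replicates 1 to 4, against 19.3, 17.5, 20.1 and 18.9 CPM in wild type replicates 1 to 4. The groups overlapped throughout, and the log2 fold change was 0.04 (SE 0.08, adjusted p = 0.828), with a 95% interval from -0.14 to 0.23. Mdm2, the feedback target that p53 activates to restrain itself, had 42.5, 42.0, 43.8 and 43.5 CPM in Ercc1 delta/+, against 39.6, 41.0, 43.7 and 46.6 CPM in wild type. All 4 Ercc1 delta/+ values lay inside the wild type range. Its log2 fold change was 0.01 (SE 0.07, adjusted p = 0.964), and the 95% interval from -0.14 to 0.16 leaves room for a level between 0.907 and 1.11 times that of wild type.

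Among the genes of cell cycle arrest and the stress kinases, 4 of 8 had positive log2 fold changes, with a median of -0.01. Cdkn1a, which encodes the p21 inhibitor of cyclin-dependent kinases and is the textbook p53 target, had the largest difference of all members. It stood at 28.8, 32.4, 17.7 and 32.5 CPM in Ercc1 delta/+ replicates 1 to 4, against 17.9, 19.2, 11.8 and 11.2 CPM in wild type replicates 1 to 4. Ercc1 delta/+ replicates 1, 2 and 4 lay above every wild type library, and replicate 3 lay between wild type replicates 1 and 3. The means of 27.8 ± 6.99 CPM in Ercc1 delta/+ and 15.0 ± 4.10 CPM in wild type (SD over 4 libraries) gave a log2 fold change of 0.89 (SE 0.24), with an unadjusted p of 0.00414 in the edgeR quasi-likelihood test. Adjusted over all genes this p was 0.103, above the threshold. In the authors' deposited table Cdkn1a had a log2 fold change of 0.88 and an adjusted p of 0.00228, and it was the only member under 0.05 in that table, where 1.86% of all rows were. DESeq2 gave an adjusted p of 0.00762 and the edgeR exact test 0.0185, tools by which 7.44% and 3.59% of all genes were called. A depth term in the edgeR model, which sets apart the 4 shallowest libraries (3 Ercc1 delta/+ and 1 wild type), gave Cdkn1a a log2 fold change of 0.54 (adjusted p = 0.213).

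Cdkn1a has 2 rows in the table, one for each of its annotated starts, and the rows share most of their counts (3908 in all for NM_007669 and 3698 for NM_001111099). With every transcript as its own row, their log2 fold changes were 0.88 and 0.88 (adjusted p = 0.104 and 0.111 by the edgeR quasi-likelihood test), so use of the starts cannot be separated with these counts. The 250 bases before each start, from RefSeq on GRCm38.p6, are shown because this gene carries the largest difference and because p53 binds paired copies of a 10-base element that often has CATG at its core. Mdm2 is shown beside it as a classic target with nearly equal levels. Its 250 bases held 1 single copy of the element consensus, and whether p53 acts on Mdm2 within them was not tested. Capitals mark CATG, any 6 bases and CATG again in Cdkn1a and the 10-base p53 element consensus in Mdm2, each searched on both strands.
Cdkn1a, start of NM_001111099, chr17:29090729-29090978, plus strand: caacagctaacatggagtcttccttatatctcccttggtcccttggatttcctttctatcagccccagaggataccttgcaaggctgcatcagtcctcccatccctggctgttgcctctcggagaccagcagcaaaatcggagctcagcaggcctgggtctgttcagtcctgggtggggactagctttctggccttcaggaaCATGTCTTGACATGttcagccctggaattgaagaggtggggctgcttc
Cdkn1a, start of NM_007669, chr17:29093519-29093768, plus strand: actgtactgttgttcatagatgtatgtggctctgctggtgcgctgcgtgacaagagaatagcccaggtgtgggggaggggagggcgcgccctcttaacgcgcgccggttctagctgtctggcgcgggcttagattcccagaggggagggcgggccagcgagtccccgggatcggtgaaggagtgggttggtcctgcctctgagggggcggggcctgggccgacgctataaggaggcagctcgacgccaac
Mdm2, start of NM_010786, chr10:117710759-117711008, minus strand: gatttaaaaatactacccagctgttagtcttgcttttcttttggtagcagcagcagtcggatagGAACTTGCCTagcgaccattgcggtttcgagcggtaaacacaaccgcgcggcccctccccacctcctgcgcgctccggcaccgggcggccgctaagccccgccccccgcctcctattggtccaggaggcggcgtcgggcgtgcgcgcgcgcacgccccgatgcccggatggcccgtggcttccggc

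The paired CATG letters begin 48 bases before the upstream Cdkn1a start, and among windows of 300 bases around 32851 starts (250 before and 50 after) they occur in 0.712%. They were found in the window of no other member, and 25 of the 31 members had a window. The 10-base p53 element consensus was present in 12 of 31 member windows (38.7%) and in 8.36% of all windows. Besides Cdkn1a and Mdm2 these belonged to Aen, Bax, Ccng1, Ckap2, Ei24, Gadd45a, Polk, Sesn1 and Trp53, whose absolute log2 fold changes were at most 0.11. The glucocorticoid receptor letters, AGAACA and TGTTCT with 3 bases between, were in the window of 0 members (0.00913% of all windows), and TGACGTCA, the element bound by the activity-dependent factor Creb, was in the window of 1 member, Plk2 (1.79% of all windows). The activator protein letters TGANTCA were found in 1 member, Fas (7.81% of all windows). A match describes letters in this window and does not show binding.

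**Figure D3:**
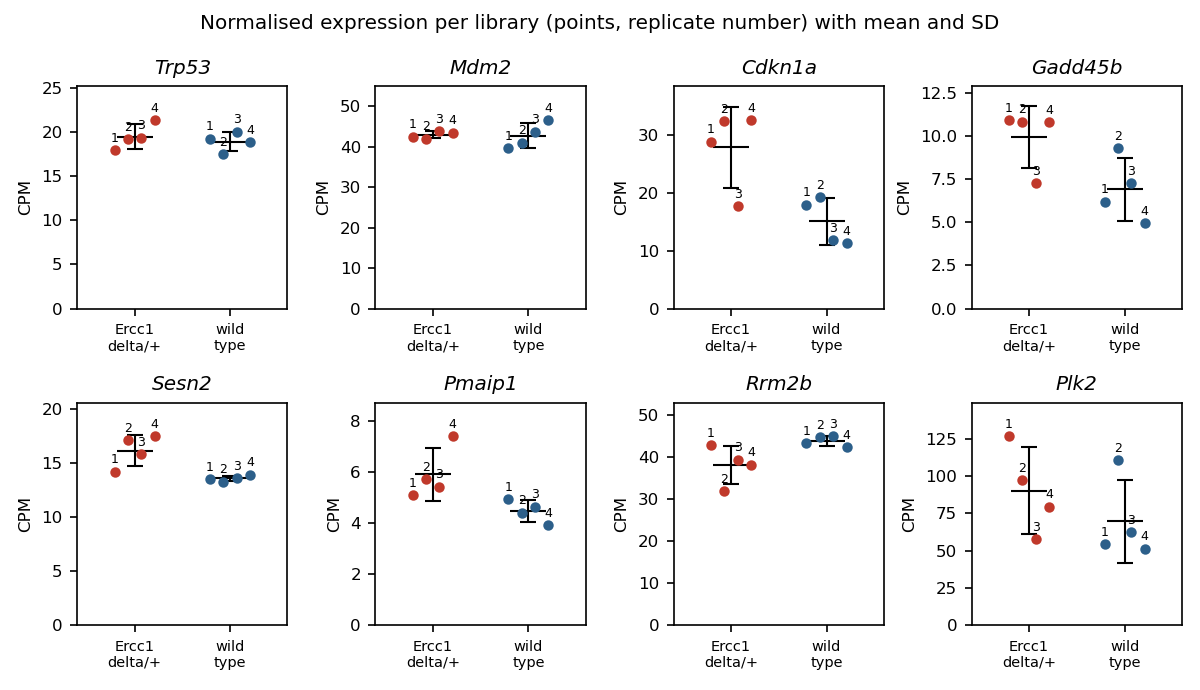
Normalised expression in CPM of 8 members, each axis from 0, with 1 numbered point per replicate, red for Ercc1 delta/+ and blue for wild type, and bars for the mean and SD (n = 4 each). Trp53 and Mdm2 overlap, Sesn2 and Pmaip1 separate by a small gap, and Ercc1 delta/+ replicate 3 is the lowest of its group for Cdkn1a, Gadd45b and Plk2.

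The 3 Gadd45 genes encode related small proteins that bind stress kinases and the replication clamp. Gadd45b stood at 10.9, 10.8, 7.24 and 10.8 CPM in Ercc1 delta/+ replicates 1 to 4, against 6.18, 9.27, 7.24 and 4.94 CPM in wild type. Ercc1 delta/+ replicates 1, 2 and 4 lay above every wild type library, while replicate 3 matched wild type replicate 3. The log2 fold change was 0.53 (SE 0.21, unadjusted p = 0.0303), and it did not pass the quasi-likelihood test (adjusted p = 0.219). With the depth term it was 0.24 (adjusted p = 0.478 by the same test). Gadd45a, the member of this family most tied to p53, ran from 5.72 to 6.73 CPM in Ercc1 delta/+ and from 5.60 to 7.60 CPM in wild type, a log2 fold change of -0.06 (SE 0.12). Gadd45g ran from 12.5 to 22.2 CPM in Ercc1 delta/+ and from 15.4 to 19.1 CPM in wild type, a log2 fold change of -0.03 (SE 0.17). The difference between the family members was not tested.

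Plk2 and Plk3 encode polo-like kinases of the stress response, and Plk2 phosphorylates alpha-synuclein. Plk2 stood at 127, 97.5, 57.8 and 79.4 CPM in Ercc1 delta/+ replicates 1 to 4, against 54.5, 111, 62.2 and 51.3 CPM in wild type. The groups overlapped over most of their range, and the log2 fold change of 0.38 (SE 0.29) did not pass the test (adjusted p = 0.519 by the edgeR quasi-likelihood test). The 3 libraries with the highest Plk2, namely replicates 1 and 2 of Ercc1 delta/+ with replicate 2 of wild type, were also the 3 with the highest summed level of 7 cortical and hippocampal neuron markers, at 316, 249 and 258 CPM, against 114 to 187 CPM in the other 5 libraries. The 7 astrocyte markers also summed highest in these 3 libraries, at 5205, 4909 and 5113 CPM, against 3264 to 3856 CPM in the others. The 5 striatal markers differed, with 689, 102 and 826 CPM in the same order, where 102 CPM was the lowest of all libraries. None of the markers in these lists was at 0 in any library, and the part of these lists in the Plk2 values was not tested. Plk2 had a log2 fold change of 0.17 without Ercc1 delta/+ replicate 1 and 0.69 without wild type replicate 2, and with the depth term it was -0.04. Plk3 ran from 15.1 to 18.3 CPM in Ercc1 delta/+ and from 14.2 to 20.7 CPM in wild type (log2 fold change -0.09, SE 0.12).

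The cyclin G gene Ccng1, a strongly induced p53 target in many tissues, ran from 53.4 to 68.8 CPM in Ercc1 delta/+ and from 54.1 to 76.8 CPM in wild type. Its log2 fold change of -0.11 had a 95% interval from -0.41 to 0.20. Ckap2, a gene for a protein of the mitotic spindle, was hardly detected, with 0.539 ± 0.0919 CPM in Ercc1 delta/+ and 0.520 ± 0.215 CPM in wild type (mean ± SD of 4 libraries). At this depth its interval from -0.76 to 0.79 allows a difference in either direction.

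Of the 11 genes that act in apoptosis within the cell, 8 had positive log2 fold changes, with a median of 0.05, and 0 passed over all genes tested. Pmaip1, which encodes the Bcl2-binding protein Noxa, stood at 5.11, 5.72, 5.43 and 7.41 CPM in Ercc1 delta/+ replicates 1 to 4, against 4.94, 4.41, 4.65 and 3.93 CPM in wild type. Every Ercc1 delta/+ library lay above every wild type library, but the closest pair was 5.11 and 4.94 CPM. The log2 fold change was 0.40 (SE 0.15, unadjusted p = 0.0243), and it did not pass the quasi-likelihood test (adjusted p = 0.203). It was 0.27 without Ercc1 delta/+ replicate 4, the library with the highest value.

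The core effectors of the mitochondrial route showed no such separation. Bbc3, which encodes the Bcl2-binding protein Puma, ran from 3.58 to 4.41 CPM in Ercc1 delta/+ and from 3.02 to 4.57 CPM in wild type (log2 fold change 0.03, 95% interval from -0.33 to 0.39). Bax ran from 20.7 to 24.8 CPM in Ercc1 delta/+ and from 21.2 to 25.4 CPM in wild type (log2 fold change 0.01, 95% interval from -0.20 to 0.21). For both genes the Ercc1 delta/+ values lay almost entirely within the spread of wild type. Apaf1, the scaffold of the caspase-activating apoptosome, ran from 13.5 to 18.2 CPM in Ercc1 delta/+ and from 11.0 to 17.2 CPM in wild type (log2 fold change 0.17, SE 0.15). Leaving out Ercc1 delta/+ replicate 1 gave Apaf1 0.092, leaving out wild type replicate 1 gave 0.078, and leaving out replicate 4 of wild type gave 0.30. Pidd1, a death domain scaffold gene, was low, at 1.83 ± 0.528 CPM in Ercc1 delta/+ and 1.96 ± 0.583 CPM in wild type (mean ± SD of 4 libraries).

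The remaining members of this group included some of the most abundant. Zmat3, which encodes a zinc finger protein that binds RNA, stood at 131, 124, 118 and 123 CPM in Ercc1 delta/+, against 123, 114, 110.4 and 109.7 CPM in wild type. Its log2 fold change of 0.12 (SE 0.06) did not pass the test (adjusted p = 0.342 by the edgeR quasi-likelihood test), and it was 0.00 with an offset for the trend of fold change over transcript length and GC content. Zmat3 has the longest transcript of the members, at 7797 bases, and over all genes longer transcripts had higher log2 fold changes (Spearman coefficient 0.395 across 14705 genes, which are not independent replicates). Perp, a membrane protein gene, ran from 5.26 to 6.69 CPM in Ercc1 delta/+ and from 3.82 to 6.92 CPM in wild type, and wild type replicate 4 alone lay above the Ercc1 delta/+ range. The log2 fold change of Perp was 0.27 (SE 0.19), with 0.16 once wild type replicate 1 was left out and 0.47 once replicate 4 of that genotype was. For the other 4 genes the log2 fold changes were 0.09 for Trp53inp1, which promotes p53 phosphorylation and autophagy, 0.05 for the nuclease gene Aen, -0.04 for Phlda3 and -0.07 for Ei24. The values of each of these 4 overlapped between the genotypes.

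All 3 receptor genes of the tumour necrosis factor family had positive log2 fold changes at very low levels, and none passed the test. Tnfrsf10b, the mouse receptor for the death ligand Trail, stood at 0.929, 0.907, 0.978 and 0.732 CPM in Ercc1 delta/+, against 0.386, 0.397, 0.787 and 0.884 CPM in wild type. These levels rest on 16 to 27 counts per Ercc1 delta/+ library, and the 95% interval of the log2 fold change of 0.50 ran from -0.21 to 1.21. Fas averaged 1.54 ± 0.538 CPM in Ercc1 delta/+ and 1.36 ± 0.211 CPM in wild type, and Eda2r 0.543 ± 0.261 CPM in Ercc1 delta/+ and 0.521 ± 0.124 CPM in wild type (mean ± SD of 4 libraries). The 95% interval of the fold ran from 0.864 to 2.31 for Tnfrsf10b, from 0.725 to 1.72 for Fas and from 0.575 to 1.90 for Eda2r. Without wild type replicate 1 the log2 fold change of Tnfrsf10b was 0.33.

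The genes of metabolism, autophagy and nucleotide supply were split, with 3 positive and 4 negative log2 fold changes. Sesn2, which encodes the leucine-sensing protein sestrin 2 that restrains mTORC1, stood at 14.2, 17.1, 15.9 and 17.5 CPM in Ercc1 delta/+, against 13.5, 13.3, 13.6 and 13.9 CPM in wild type. The wild type libraries had an SD of 0.271 CPM, and the lowest Ercc1 delta/+ library stood just above them. The log2 fold change was 0.25 (SE 0.09, unadjusted p = 0.0176), and it did not pass the quasi-likelihood test (adjusted p = 0.175). With the length and GC offset it was 0.15. Its relative Sesn1, the sestrin more tied to p53, ran from 46.6 to 54.6 CPM in Ercc1 delta/+ and from 43.0 to 52.4 CPM in wild type, a log2 fold change of 0.07 (SE 0.08).

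Rrm2b encodes the p53-induced subunit of ribonucleotide reductase that supplies nucleotides outside S phase, also for mitochondrial DNA. It had 42.8, 31.8, 39.3 and 38.2 CPM in Ercc1 delta/+ replicates 1 to 4, against 43.2, 44.7, 44.8 and 42.3 CPM in wild type. Ercc1 delta/+ replicates 2, 3 and 4 lay below every wild type library, and replicate 1 lay inside the wild type range. The log2 fold change was -0.20 (SE 0.09, unadjusted p = 0.0476), and it did not pass the quasi-likelihood test (adjusted p = 0.262). It was -0.13 without Ercc1 delta/+ replicate 2, the library with the lowest value, and -0.11 with the length and GC offset.

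Tigar, which encodes a fructose bisphosphatase that turns glucose toward NADPH production, had 34.3, 42.4, 29.0 and 37.4 CPM in Ercc1 delta/+ and 32.3, 33.2, 30.8 and 25.5 CPM in wild type. Its log2 fold change was 0.23 (SE 0.13, adjusted p = 0.355 by the edgeR quasi-likelihood test), and Ercc1 delta/+ replicate 3 lay below 3 of the wild type libraries. For Tigar it was 0.085 with the depth term, 0.14 without Ercc1 delta/+ replicate 2 and 0.15 without wild type replicate 4. Fdxr, the mitochondrial ferredoxin reductase gene, averaged 15.0 ± 2.73 CPM in Ercc1 delta/+ against 15.9 ± 2.84 CPM in wild type (SD over 4 libraries, log2 fold change -0.08). The translesion polymerase gene Polk (-0.03) and the autophagy modulator gene Dram1 (-0.03) had log2 fold changes near 0.

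**Figure D4:**
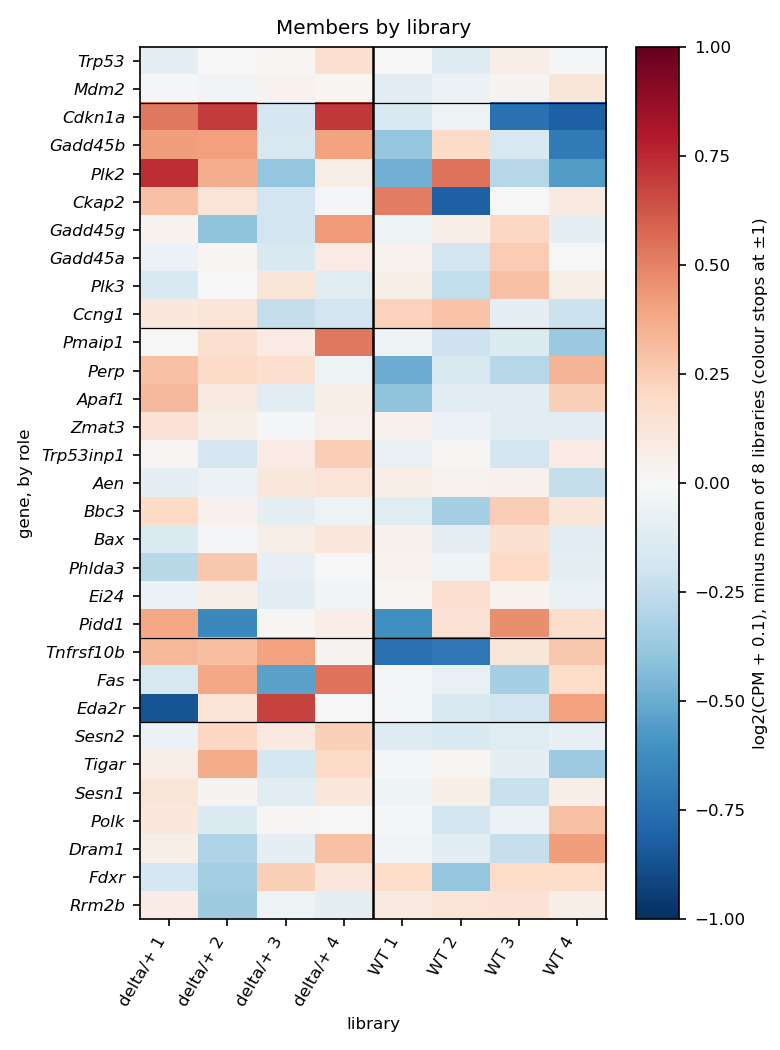
Each member by library as log2(CPM + 0.1) minus its mean over the 8 libraries, with colour stopping at 1 and Ercc1 delta/+ on the left of the vertical line. Cdkn1a and Gadd45b are high in Ercc1 delta/+ replicates 1, 2 and 4, and Plk2 is high in replicates 1 and 2. None of them is high in replicate 3, while the rows of Trp53, Mdm2 and Bax are nearly flat.

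Single libraries differed in how often they held the highest value of a member. Ercc1 delta/+ replicate 4 was the highest of the 8 libraries for 8 members and the lowest for 0, against 7.75% and 7.92% of all genes. Ercc1 delta/+ replicate 3 was the highest for 3 members, against 8.87% of all genes. Wild type replicate 2 was the lowest for 8 members, against 14.3% of all genes. The mean of log2 CPM over the members, relative to the mean of the 8 libraries, was 0.07, 0.05, -0.02 and 0.13 in Ercc1 delta/+ replicates 1 to 4 and -0.09, -0.09, -0.03 and -0.02 in wild type. The spread within a genotype was thus of the same order as the gap between the genotypes, and Ercc1 delta/+ replicate 3 was level with the highest wild type library. Without that replicate, 6 members had groups that did not overlap, all higher in Ercc1 delta/+: Cdkn1a, Gadd45b, Pmaip1, Sesn2, Zmat3 and Tigar. Over all genes 18% did not overlap, with both directions pooled, and the share of higher genes alone was not counted. Leaving out another Ercc1 delta/+ library gave 3, 2 and 3 members for replicates 1, 2 and 4 (14.3%, 20% and 13.7% of all genes). Leaving out wild type replicates 1 to 4 gave 3, 2, 2 and 4 members (14.8%, 18.7%, 14.3% and 18.4% of all genes). Without Ercc1 delta/+ replicate 3 the log2 fold changes of Cdkn1a and Gadd45b were 1.06 and 0.66 (adjusted p = 0.0743 and 0.139 by the edgeR quasi-likelihood test). Over all runs that left out a library they ran from 0.77 to 1.06 for Cdkn1a and from 0.39 to 0.70 for Gadd45b. Among all alternative settings the adjusted p of Cdkn1a reached 0.311 by the edgeR quasi-likelihood test.

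Other genes of the pathway were counted in the same way. Of 34 further p53 target genes 33 were tested, 20 with positive log2 fold changes, a median of 0.09 and 0 past the test. At an unadjusted p under 0.05 this list held 0 higher genes and 1 lower gene (9.03% and 9.57% of all genes tested). The lower gene was Rps27l, with 4.16 ± 1.09 CPM in Ercc1 delta/+ against 7.03 ± 0.576 CPM in wild type (SD over 4 libraries, log2 fold change -0.75, adjusted p = 0.0957 by edgeR). Rps27l resembles the ribosomal protein gene Rps27, and the treatment of reads common to both is unknown, so its value is uncertain. Of 22 tested regulators of p53, 14 were positive, with a median of 0.08 and 0 past the edgeR test. At an unadjusted p under 0.05 this list held 4 higher and 3 lower genes, against 9.03% and 9.57% of all genes tested. The groups of 2 higher and 3 lower regulators did not overlap, against 5.17% and 6.86% of all genes. The acetyltransferase gene Crebbp had the smallest p, with 63.5 ± 2.16 CPM in Ercc1 delta/+ against 48.4 ± 4.81 CPM in wild type (SD over 4 libraries) and a log2 fold change of 0.39 (adjusted p = 0.0638 by edgeR). Rpl11 and Rpl5, ribosomal proteins that bind Mdm2, had log2 fold changes of -0.50 and -0.50 (adjusted p = 0.0786 and 0.0889 by edgeR). The part of the trend over transcript length in the values of Rps27l and of these regulators was not tested.

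Downstream of p53, 8 of 19 Bcl2 family and caspase genes were positive, with a median of -0.11 and 0 past the edgeR test. At an unadjusted p under 0.05 there were 1 higher and 2 lower genes, against 9.03% and 9.57% of all genes tested. Among those under that limit were the cytochrome c gene Cycs (log2 fold change -0.26) and the survival gene Bcl2l1 (0.20). Of 12 tested cell cycle genes that p53 lowers through the DREAM repressor complex, 7 were positive, with a median of 0.07. Of these 12, 0 passed the edgeR test. At an unadjusted p under 0.05 there were 0 higher and 1 lower, against 9.03% and 9.57% of all genes tested. Ccna2, encoding cyclin A, had the smallest p, with 6.43 ± 0.702 CPM in Ercc1 delta/+ against 8.28 ± 0.560 CPM in wild type (SD over 4 libraries, log2 fold change -0.36, adjusted p = 0.143 by edgeR). The proliferation marker Mki67 was low in both groups, at 1.96 ± 0.575 CPM in Ercc1 delta/+ and 1.29 ± 0.523 CPM in wild type (mean ± SD of 4 libraries).

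Lists of genes with inducers that some members share had larger medians than the members, a difference that was not tested. Of 17 tested glucocorticoid-induced genes, a list without Cdkn1a, 16 were positive, with a median log2 fold change of 0.59, and 1, Zbtb16, passed the edgeR quasi-likelihood test (log2 fold change 2.23, adjusted p = 0.0341). At an unadjusted p under 0.05 it held 11 higher genes (9.03% of all genes tested) and 0 lower genes (9.57%), and 5 higher genes did not overlap between the groups (5.17%). The mean of this list, relative to the 8 libraries, was 0.02, 0.38, 0.27 and 0.81 in Ercc1 delta/+ replicates 1 to 4 and -0.15, -0.35, -0.51 and -0.47 in wild type. Cdkn1a was highest in Ercc1 delta/+ replicates 4 and 2 and lowest in wild type replicates 4 and 3, which are also the highest pair and the lowest pair of this list. Other libraries differed in order. Ercc1 delta/+ replicate 1 had 28.8 CPM of Cdkn1a, above every wild type library, but the lowest list mean of its group. In wild type, Cdkn1a was higher in replicate 2 (19.2 CPM) than in replicate 1 (17.9 CPM), the reverse of the list. Fkbp5, a glucocorticoid receptor chaperone gene, had 60.5, 56.9, 57.9 and 78.5 CPM in Ercc1 delta/+, against 38.0, 44.7, 29.8 and 27.3 CPM in wild type, without the dip in replicate 3 that Cdkn1a shows. Tsc22d3, the leucine zipper gene that glucocorticoids raise, had 94.3, 127, 121 and 181 CPM in Ercc1 delta/+, against 132, 95.4, 93.5 and 79.7 CPM in wild type, with overlapping groups.

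Of 18 immediate early genes, which neurons transcribe within minutes of a signal, 14 were positive, with a median of 0.58, and 0 passed the edgeR test over all genes (6 higher and 0 lower at an unadjusted p under 0.05, against 9.03% and 9.57% of all genes). Fos, the best known of them, averaged 36.9 ± 9.22 CPM in Ercc1 delta/+ against 38.6 ± 13.5 CPM in wild type (SD over 4 libraries). Dusp1 stands in this list and in the glucocorticoid-induced one, and Btg2 in this list and among the further p53 targets. The mean of all 18 immediate early genes was 0.67, 0.60, -0.48 and 0.33 in Ercc1 delta/+ replicates 1 to 4 and -0.70, 0.09, -0.11 and -0.40 in wild type. Ercc1 delta/+ replicate 3 thus lay below 3 of the wild type libraries. Gadd45b and Plk2 were lowest in the same replicate among the Ercc1 delta/+ libraries and highest in wild type replicate 2 among the wild type libraries, which is also where this list was highest in wild type. The 10 choroid plexus markers, all positive with a median of 1.70, had their highest mean (1.76) in Ercc1 delta/+ replicate 3. The part of these lists in the values of Cdkn1a, Gadd45b and Plk2 was not tested.

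**Figure D5:**
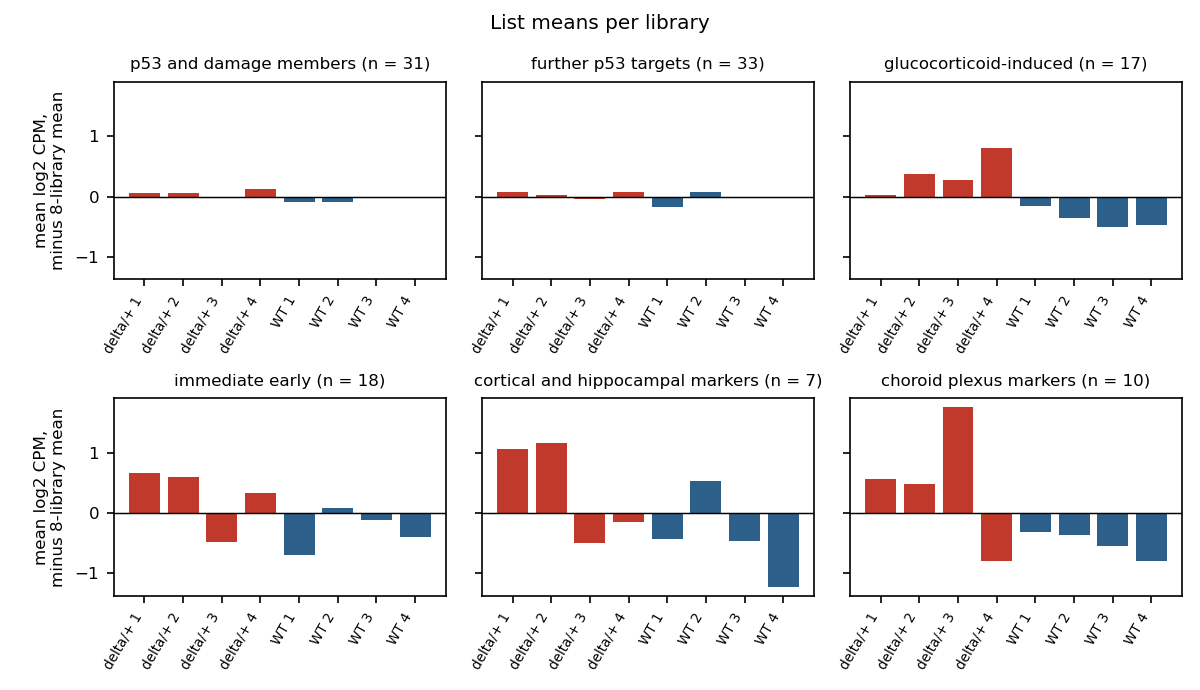
Mean log2 CPM of 6 gene lists in each library, minus the mean of the 8 libraries, red for Ercc1 delta/+ and blue for wild type, on a common axis. The bars of the members stay between -0.09 and 0.13, while those of the glucocorticoid-induced list reach 0.81 in Ercc1 delta/+ replicate 4 and those of the immediate early list stand at -0.48 in Ercc1 delta/+ replicate 3.

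Ercc1 lies on chromosome 7, and 4 members lie on the same chromosome, Bax, Bbc3, Aen and Pidd1. Their log2 fold changes of 0.01, 0.03, 0.05 and -0.09 were among the smaller ones, and no member with an absolute log2 fold change above 0.1 lies on chromosome 7. Of the 7 members with an absolute log2 fold change above 0.25, Gadd45b and Perp lie on chromosome 10 and each of the others, Cdkn1a, Sesn2, Pmaip1, Plk2 and Tnfrsf10b, on a chromosome of its own.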

How the data were processed

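Per the labels' protocols, poly(A) RNA with a quality number above 8 was fragmented, copied, amplified for 15 cycles and sequenced in 1 shared lane. Per the submitters' processing notes, TopHat 1.3.1, edgeR and the mm9 build were used. The counting tool, its strand setting and its treatment of shared reads were not named in any source used. The authors deposited raw counts for 19931 RefSeq rows. The deposited log2 fold changes, p-values and adjusted p-values are the authors' own comparison, with Ercc1 delta/+ over wild type.

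Names came from RefSeq (GRCm38.p6) and GENCODE M21 tables, which matched 19600 rows. Lengths were found for 98.0% of genes. Each gene was read from its row of highest total, after merging 45 genes whose counts equalled those of another. Genotypes were compared with edgeR 4.0.16 by quasi-likelihood (R 4.3.3, TMM, filterByExpr, Benjamini-Hochberg, threshold 0.05, two-sided), tested on simulated data. Intervals of 95% and SE come from that fit. CPM is TMM-normalised, with a prior count of 2 on the log2 scale. A count of 3, the least read as detected, corresponds to between 0.0962 and 0.164 CPM, for counting error only. Alternatives were RLE scaling, other filters, DESeq2 1.42.0, limma-voom (limma 3.58.1), the edgeR exact test, a replicate block, a length and GC offset (lowess span 0.3), a depth term, every transcript as a row, and leaving out each library.

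The members and lists were chosen with earlier results of these data known. Members were described in full where the unadjusted p was under 0.05 or the groups did not overlap, with Trp53, Mdm2 and Cdkn1a, and Ercc1, Zbtb16, Fkbp5, Tsc22d3 and Fos were named whatever their values. Plk2, Zmat3, Tnfrsf10b and Tigar were given in full after their values were seen. From other lists up to 3 genes of smallest p could be named.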

Additional observations from a re-analysis of the deposited data

Results flagged for a closer look

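In 3 of 62 groups of 4 libraries, 1 library stood apart from its own group by a gap that took up most of the group's range, past a limit (Dixon's at 95%) that chance passes in about 1 of 20 groups. Gadd45b stood at 7.24 CPM in Ercc1 delta/+ replicate 3, where the other 3 libraries lay between 10.8 and 10.9 CPM. Aen stood at 27.3 CPM in wild type replicate 4, where the others lay between 33.2 and 33.7 CPM. Fdxr stood at 11.6 CPM in wild type replicate 2, where the others lay at 17.3 CPM.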

How the results depend on the processing

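The call that no member passed held in all settings but 2. DESeq2 and the edgeR exact test each called 1 member, Cdkn1a, with 1028 and 538 genes in all. The count of 7 genes past the threshold was 33 with RLE scaling, 50 with the stricter filter, 52 with limma-voom, 4 with every transcript as its own row, 1 with the length and GC offset, 1 with the depth term, and 0 with the replicate block, alone or with the offset. Without single libraries it ran from 0 (Ercc1 delta/+ replicate 4 left out) to 321 (Ercc1 delta/+ replicate 2 left out). The 5 members at an unadjusted p under 0.05 became 3 with the replicate block, 3 with the offset, 3 with both and 2 with the depth term, and from 1 (without Ercc1 delta/+ replicate 4) to 5 without single libraries. The 2 members whose groups did not overlap became 2 to 6. The median of the members stayed within its spread between replicates in every setting. The replicate number did not pair the samples (deviations of same-numbered samples correlated at -0.321, 0.192, 0.00254 and 0.318), so the block is given here only.

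Some log2 fold changes turned sign under some settings, Plk2 (0.38 as reported) and Fas (0.16) among them, and the cause was not tested. With the length and GC offset they were Gadd45a 0.097, Gadd45g 0.073, Bbc3 -0.053, Ccng1 0.0024, Aen -0.032, Polk 0.042 and Dram1 0.012. With the replicate block and that offset they were Gadd45a 0.10, Gadd45g 0.039, Bbc3 -0.035, Ccng1 0.0062, Aen -0.031, Polk 0.052 and Dram1 0.027. With the depth term they were Sesn1 -0.0085, Plk2 -0.042, Plk3 0.065, Fas -0.083, Polk 0.047 and Fdxr 0.16. With limma-voom it was Eda2r -0.040. Without single libraries the log2 fold change ran from -0.018 to 0.090 for Aen, -0.032 to 0.058 for Bax, -0.063 to 0.13 for Bbc3, -0.19 to 0.25 for Ckap2, -0.15 to 0.14 for Dram1, -0.30 to 0.31 for Eda2r, -0.033 to 0.35 for Fas, -0.21 to 0.0057 for Fdxr, -0.13 to 0.017 for Gadd45a, -0.21 to 0.080 for Gadd45g, -0.028 to 0.052 for Mdm2, -0.14 to 0.044 for Phlda3, -0.27 to 0.073 for Pidd1, -0.086 to 0.081 for Polk and -0.0070 to 0.078 for Trp53. The other 12 members kept their sign in every setting. The depth term compares genotypes within depth groups of 3 and 1 libraries.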
